A study of Mus musculus with 2 samples.

Results

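The 55 genes described here are core and accessory proteins of pre-mRNA splicing, taken from 34745 genes in the deposited expression data by their symbols. They are the 12 Snrp genes (proteins of the small nuclear ribonucleoproteins, snRNPs) and the 11 numbered Srsf genes (SR proteins). The 21 Hnrnp genes (heterogeneous nuclear ribonucleoproteins, hnRNPs) and the 11 numbered Sf3a, Sf3b and U2af genes (SF3A, SF3B and U2AF) complete the set. The question was how their mRNA differed between both kinds of M-MDSC, and whether the short snRNP proteins differed from the rest. M-MDSCs are monocytic myeloid-derived suppressor cells, immature myeloid cells that restrain T cells. CHBP- M-MDSC were bone marrow cells of C57BL/6 mice aged 6 to 8 weeks, induced for 7 days with GM-CSF at 50 ng/ml. CHBP+ M-MDSC were induced in the same way with CHBP added, a cyclic peptide derived from erythropoietin that does not drive red cell production. The dose of CHBP was 20 μM by the methods, but other text of the study has it in nM and the labels have none, and the strain label of the CHBP+ sample reads C57BL/7. The study's methods describe sorting of induced MDSCs by flow cytometry, while their RNA sequencing section does not mention it. The number of mice behind each sample is not given in the sources used here.

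Each condition was sequenced as 1 library, so no value has a replicate spread, no test between the conditions was possible, and CHBP cannot be told apart from any other difference between the libraries. Counted reads totalled 16484504 for the CHBP- library and 16280466 for the CHBP+ library. The log2 ratio is log2((FPKM + 1) in CHBP+ over (FPKM + 1) in CHBP-), where FPKM scales the reads of a gene by its length and by the library total. The added 1 shrinks this ratio for weakly expressed genes. Only genes reaching 1 FPKM in either library or both were kept, 10948 in all. Beside it stands the ratio of CPM, counts scaled to the library total, with an exact Clopper-Pearson 95% interval. The interval covers counting error only and compares the libraries, not the conditions. The monocytic marker genes (7 genes in 8 entries) had a median log2 ratio of -0.027, with 4 of 8 entries lower. The sort marker Ly6c2 had 56.9 FPKM without and 34.0 FPKM with CHBP, whereas both Itgam (CD11b) entries were higher with CHBP, and the T cell markers summed to 3.82 and 3.04 FPKM. No marker looked up was without reads in both libraries. Markers of erythroid cells were lower in CHBP+ M-MDSC for 5 of 5 genes, from 1283 to 586 FPKM in sum, and B cell markers for 4 of 4 genes, from 39.6 to 26.1 FPKM. Neutrophil markers were lower for 6 of 7 genes (174 to 130 FPKM) and mast cell and basophil markers for 3 of 4 (273 to 223 FPKM), with Ms4a2 higher at a log2 ratio of 1.04. Among all genes kept, 53.7% were lower, and genes with short transcripts were lower in general. Subtracting the running median over genes ordered by longest transcript turned the neutrophil median log2 ratio from -0.21 to 0.12. The same step left the medians of the erythroid (-0.26), B cell (-0.23) and mast cell and basophil markers (-0.064) below 0. Dendritic cell markers summed to 127 and 158 FPKM, of which Itgax held 107 and 142. Of the 3 dendritic cell markers kept, 2 were lower, with a median log2 ratio of -0.083. Of 12 proliferation genes, 8 were lower, with a median log2 ratio of -0.15, while their summed CPM was 1454 and 1538. What part these lists have in the values below was not tested, and in bulk RNA fewer cells of a type cannot be told apart from less RNA per cell.

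Splicing removes introns from pre-mRNA in the spliceosome, a machine built on small nuclear RNAs. Sm proteins form a ring around each of these RNAs, and further proteins belong to the U1 snRNP, which binds the 5′ splice site, or to the U2 snRNP, which binds the branch point. SF3A and SF3B are parts of the U2 snRNP, and U2AF marks the 3′ splice site for it. SR proteins mostly bind exons and promote their inclusion, while hnRNPs coat nuclear RNA and often act against inclusion. In myeloid cells these regulators shape the isoforms and the stability of many cytokine and surface receptor mRNAs.

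The promoters of 3 genes are shown because these genes had the lowest and the highest values among the members: Snrpg and Hnrnpd, the only members at least 1.5-fold lower by the log2 ratio, and Sf3b1, the highest. Each sequence is the 250 bases before the RefSeq start on GRCm38.p6, on the gene's strand from 5′ to 3′. Capitals mark CCGGAAG or its reverse complement CTTCCGG, the letters of an ETS-type motif. The windows are chr6:86371290-86371539 (plus strand) for Snrpg, chr5:99978939-99979188 (minus strand) for Hnrnpd and chr1:55027479-55027728 (minus strand) for Sf3b1.
Snrpg: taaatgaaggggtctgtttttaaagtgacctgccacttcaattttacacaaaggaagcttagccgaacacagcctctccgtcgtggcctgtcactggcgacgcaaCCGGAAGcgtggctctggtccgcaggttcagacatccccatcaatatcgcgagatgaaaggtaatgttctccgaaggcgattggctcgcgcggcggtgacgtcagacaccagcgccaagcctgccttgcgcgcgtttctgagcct
Hnrnpd: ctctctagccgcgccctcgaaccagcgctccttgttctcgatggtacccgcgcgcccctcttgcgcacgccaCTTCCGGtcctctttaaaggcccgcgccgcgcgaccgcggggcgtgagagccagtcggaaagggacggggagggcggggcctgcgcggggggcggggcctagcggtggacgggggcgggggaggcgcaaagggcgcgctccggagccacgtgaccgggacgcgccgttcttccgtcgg
Sf3b1: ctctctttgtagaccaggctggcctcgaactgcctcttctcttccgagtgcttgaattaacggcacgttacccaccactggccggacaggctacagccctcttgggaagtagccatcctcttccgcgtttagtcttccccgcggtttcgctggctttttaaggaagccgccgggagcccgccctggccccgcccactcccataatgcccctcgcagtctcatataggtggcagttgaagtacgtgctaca
The capitals start 145 bases before the RefSeq start in Snrpg and 178 bases before it in Hnrnpd. The Sf3b1 window holds no such match. The deposited span of Snrpg begins at 86371304, so most of its window, with the capitals, lies inside the deposited gene. RefSeq promoters were found for 47 of the 55 members. Of these, 15 (31.9%) held CCGGAAG on either strand, against 7.83% of 27025 genes and 17.3% of the 8098 genes kept that had a promoter. The members with it included 3 of 10 Snrp genes and 12 of 37 others. Of the members with it, Sf3a1, Sf3b3 and Srsf11 were higher with CHBP and the rest were lower. Members without it also lay on both sides, with Hnrnpa0 lower and Hnrnpu higher. A link between the motif and the ratio was not tested. The GC box GGGCGG was present in 72.3% of the members, 35.4% of all genes and 64% of the genes kept. The CCAAT box CCAAT was found in 48.9%, 37.5% and 40.8% in the same order, and the TATA box TATAAA in 12.8%, 14.3% and 7.29%. The E box CACGTG was found in 8.51%, 6.86% and 10.4%, and TGACGTCA, the letters bound by CREB-type factors, in 4.26%, 1.77% and 3.2%. No motif searched contains another, both strands were searched, and the motifs were chosen after the promoters were seen. These matches describe letters and are not binding sites, and the data hold no measurement of factor binding.

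Of the 55 genes, 53 were kept. Srsf12 had no read in either library, which allows a level of up to 0.182 CPM for CHBP- and 0.184 CPM for CHBP+ (3 reads). Snrpn, the Sm protein of neurons, had 1 read, in the CHBP+ library. The 53 genes kept took 0.921% of the CHBP- reads (95% Clopper-Pearson interval 0.917 to 0.926) and 0.886% of the CHBP+ reads (0.882 to 0.891), a CPM ratio of 0.962 (0.955 to 0.969). The single groups and genes lay on both sides of this summed ratio.
Across the members, 40 of 53 genes were lower in CHBP+ M-MDSC, where 53.7% of all genes kept were lower. Their median log2 ratio was -0.15, against -0.028 for all genes kept. At the 1.5-fold level, 0 members were higher (3.42% of all genes kept were) and 2 were lower (2.89% of all genes kept). By the CPM ratio, with nothing added, 4 members passed 1.5-fold lower, Snrpe and Hnrnpa3 with the first pair, beside 5.54% of all genes kept. The counting interval lay below 1 for 33 members and above 1 for 8, and it included 1 for 12. Among all genes kept, it lay below 1 for 31.1% and above 1 for 28%. The members were sequenced more deeply than most genes, with a median of 4008 reads over both libraries against 1180 for all genes kept, so smaller differences pass the counting interval.

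**Figure D1:**
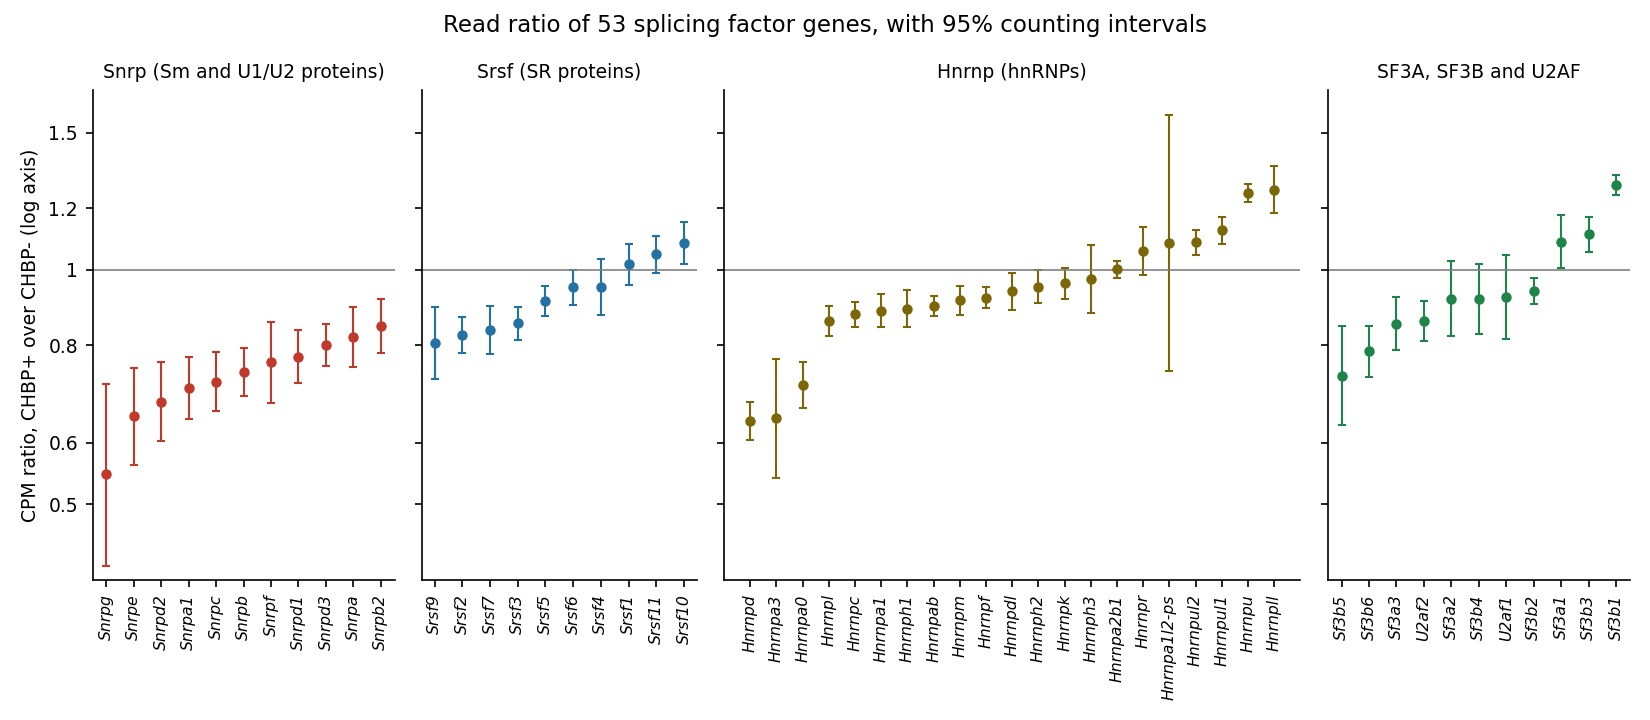
CPM ratio of CHBP+ over CHBP- M-MDSC (log axis) for the 53 members kept, by role group, with 1 point per gene and bars for the 95% counting interval. All 11 Snrp genes lie below 1 with their intervals, whereas the other groups straddle 1 and reach 1.29 at Sf3b1.

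The Snrp genes were the lowest of the 4 role groups. All 11 that were kept were lower in CHBP+ M-MDSC, and all 11 counting intervals lay below 1. Of all genes kept, 53.7% were lower and 31.1% had an interval below 1. Together they had 12544 reads without and 9412 reads with CHBP, a CPM ratio of 0.76 (counting interval 0.74 to 0.78). Their median log2 ratio was -0.42, against -0.11 for the 42 other members, a difference of -0.31. The range within the group ran from -0.67 to -0.23, so even its highest gene stood below the median of the rest.
The 7 Sm ring genes were all lower, with a median log2 ratio of -0.42 and a summed CPM ratio of 0.75 (0.725 to 0.776). Snrpg (ENSMUSG00000057278, chromosome 6 from 86371304 to 86379328), which encodes Sm protein G, was counted 163 times without CHBP and 88 times with it. Its FPKM was 4.47 and 2.44, its log2 ratio -0.67 and its CPM ratio 0.547 (0.417 to 0.713). It had the fewest reads of the Snrp genes kept and the widest interval of the group.
Snrpe (chromosome 1 from 133603871 to 133610291), which encodes Sm protein E, had 501 and 321 reads, a log2 ratio of -0.57 and a CPM ratio of 0.649 (0.562 to 0.748). Snrpd2, which encodes Sm protein D2, had 725 and 485 reads and a log2 ratio of -0.52. Sm proteins D2, E, F and G assemble side by side in the ring, and their genes were lower, as were all 11 Snrp genes kept. Snrpf had 651 and 489 reads and a log2 ratio of -0.39, which Snrpb, Snrpc and Snrpa1 outside this block fell below. With the transcript length trend removed Snrpf was at -0.028. Snrpd1 and Snrpd3 were the ring genes nearest to 0. Snrpd1 had 1475 and 1127 reads (log2 ratio -0.37) and Snrpd3 had 2315 and 1830 reads (log2 ratio -0.31). Snrpb, which encodes Sm proteins B and B′, had a log2 ratio of -0.42. Counting error did not separate Snrpd1 from Snrpd3, since the intervals of Snrpd1 (0.715 to 0.837) and Snrpd3 (0.752 to 0.851) overlap.
The 4 genes for proteins of 1 snRNP only were also all lower, with a median log2 ratio of -0.35. Snrpa1 (chromosome 7 from 66059003 to 66074587), which encodes the U2 protein A′, had 1140 and 794 reads, a log2 ratio of -0.46 and a CPM ratio of 0.705 (0.643 to 0.773). Its partner on U2 RNA, Snrpb2, had 1360 and 1138 reads and the highest log2 ratio of the group at -0.23. The intervals of both genes do not overlap, with that of Snrpb2 at 0.782 to 0.917. Snrpa, which encodes the U1 protein A, had 1113 and 901 reads and a log2 ratio of -0.27. Snrpc, which encodes the U1 protein C, had 1223 and 868 reads and a log2 ratio of -0.43.

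The Snrp proteins are short, and short genes were lower in general. The longest annotated coding lengths of the 11 Snrp genes (GENCODE M1) ranged from 231 to 867 bases with a median of 381, against a median of 1263 for the other members. Among the 2762 genes kept with a coding length of at most 867 bases, 81.3% were lower in CHBP+ M-MDSC, 6.7% were at least 1.5-fold lower, and 57% of 2761 had a counting interval below 1. Their median log2 ratio was -0.22, above the Snrp median of -0.42. They were not matched in length to the Snrp genes, as their median coding length was 585 bases against 381. The 10 other members within that coding range had a median of -0.23, and 8 of them were lower. The 31 other members above it had a median of -0.086.
Across the 52 members with a coding length, Spearman's rho between it and the log2 ratio was 0.73. Across all 10211 genes kept with one, it was 0.58. These correlations describe genes measured in the same pair of libraries, which are not independent replicates. With the length of the longest transcript in place of the coding length, rho was 0.52 over 53 members and 0.66 over 10508 genes.

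**Figure D2:**
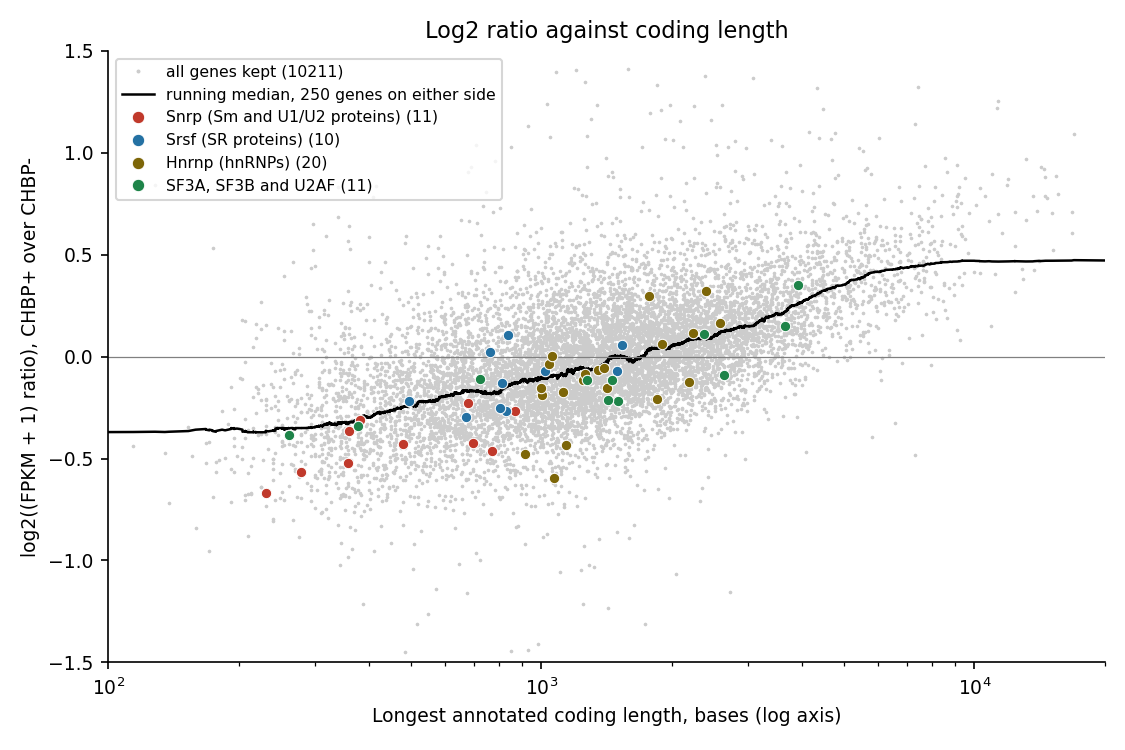
Log2 ratio of CHBP+ over CHBP- M-MDSC against the longest annotated coding length in bases (log axis), with grey points for 10211 genes kept, a black running median over each gene and 250 on either side, and coloured points for 52 members. Points beyond 1.5 on either side of the vertical axis are not drawn, and all 11 Snrp genes lie below the running median, which itself is below 0 at their lengths.

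Removing the trend with length, by subtracting the running median over genes ordered by length, brought the Snrp genes closer to the rest. With the trend over the longest transcript removed, their median log2 ratio was -0.14 and that of the other members -0.038. On that scale 9 of 11 Snrp genes and 37 of 53 members were below 0, beside 49.8% of all genes. The Snrp median was -0.18 with the trend over coding length removed and -0.32 with the trend over the length behind the deposited FPKM removed. The Snrp genes thus stayed the lowest group under each of these length measures, by amounts that depended on the measure. Snrpd3 (0.073) and Snrpd1 (0.0016) were above 0 with the transcript trend removed, while Snrpg was at -0.30 and Snrpa1 at -0.30. Snrpc had the lowest Snrp value on that scale, at -0.68. Its longest annotated transcript has 6057 bases for a coding length of 480.

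**Figure D3:**
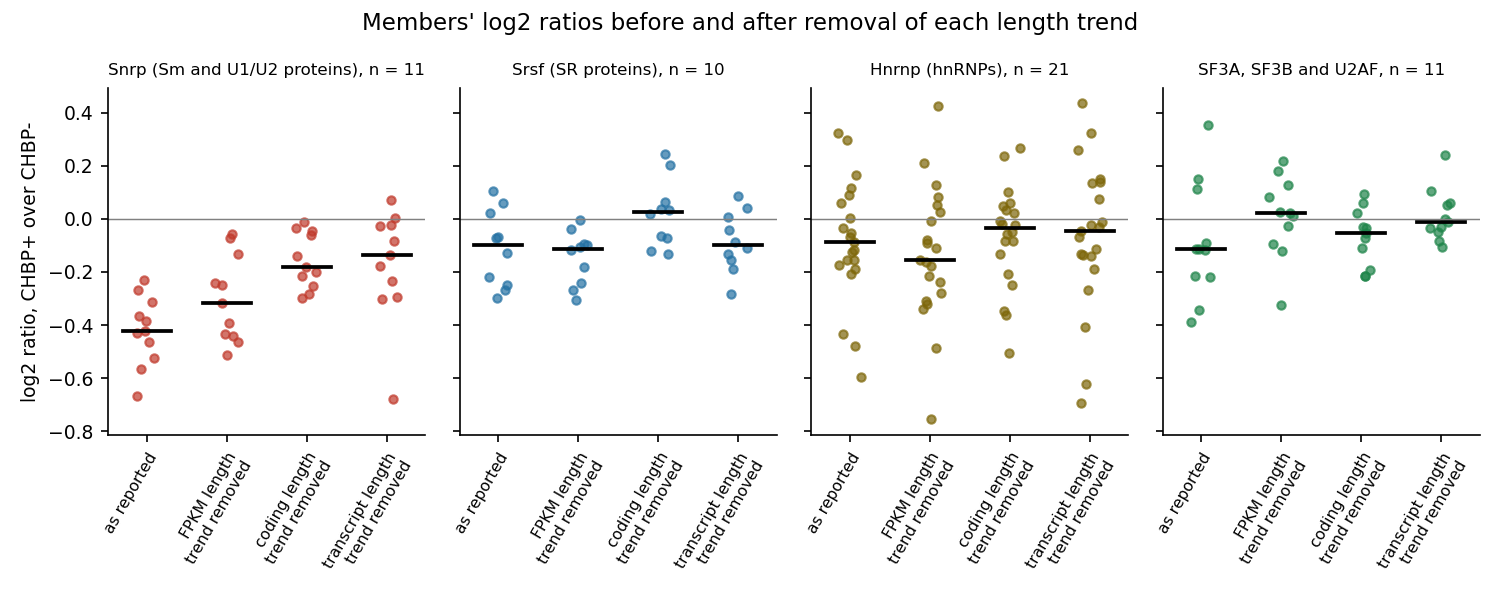
Log2 ratio of each member kept, by role group, as reported and after removal of the trend with the length behind the FPKM, the coding length (20 hnRNP genes have one) or the longest transcript, with black bars for medians. The Snrp median moved from -0.42 as reported to -0.32, -0.18 and -0.14 in that order.

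The hnRNP genes spread more widely than any other role group. Of 21 genes, 14 were lower and 7 were higher in CHBP+ M-MDSC, with a median log2 ratio of -0.086. Their summed reads were 90403 and 87090, a CPM ratio of 0.975 (0.966 to 0.985). The counting interval lay below 1 for 11 genes, above 1 for 4, and included 1 for 6. Of all genes kept, 53.7% were lower, and the interval lay below 1 for 31.1% and above 1 for 28%.
Hnrnpd (ENSMUSG00000000568, chromosome 5 from 99955935 to 99978938), which encodes AUF1, a protein that binds AU-rich elements of cytokine mRNAs and affects their decay, was the lowest. Its reads numbered 3160 without CHBP and 1996 with it (15.2 and 9.72 FPKM). The log2 ratio was -0.60 and its CPM ratio 0.64 (0.604 to 0.677), with far more reads behind it than behind Snrpg. Its longest transcript is 4320 bases, and with the transcript trend removed its log2 ratio was -0.69, the lowest of all members on that scale. Its paralog Hnrnpdl, near it on chromosome 5, had 2715 and 2519 reads and a log2 ratio of -0.09.
Hnrnpa0 (chromosome 13 from 58125879 to 58128556), a single-exon gene whose protein also binds AU-rich elements, had 2028 and 1426 reads, a log2 ratio of -0.48 and a CPM ratio of 0.712 (0.665 to 0.762). Hnrnpa3 had 333 and 212 reads and a log2 ratio of -0.43. Of the 75-base windows of its longest transcript, 83.9% occur elsewhere in the NCBIM37 genome, so its reads depend on how repeated sequence was counted. The other members of the A/B family were nearer to 0. Hnrnpa2b1 had 11735 and 11615 reads and a log2 ratio of 0.0031, Hnrnpa1 3563 and 3119 reads and a log2 ratio of -0.17, and Hnrnpab 9359 and 8304 reads and a log2 ratio of -0.15. Hnrnpa1 shares 79.1% of its windows with other places in the genome.
Hnrnpl, which binds CA repeats, and its paralog Hnrnpll, known in lymphocytes for exon skipping in Ptprc (CD45), differed in direction. Hnrnpl had 4263 and 3622 reads with a log2 ratio of -0.21, and Hnrnpll had 1476 and 1849 reads with a log2 ratio of 0.30. Their counting intervals, 0.823 to 0.9 for Hnrnpl and 1.18 to 1.36 for Hnrnpll, lie on opposite sides of 1. With the transcript trend removed, both kept their sign, at -0.14 and 0.32.
By the log2 ratio Hnrnpu was the highest of the hnRNP genes, and Hnrnpul1 and Hnrnpul2 of its family were also higher with CHBP. By the CPM ratio Hnrnpll stood above Hnrnpu, at 1.27. Hnrnpu (chromosome 1 from 178324343 to 178337797), which encodes the nuclear scaffold protein SAF-A, had 10329 and 12802 reads, or 60.3 and 75.7 FPKM, a log2 ratio of 0.32 and a CPM ratio of 1.25 (1.22 to 1.29). Hnrnpul1 had 4560 and 5065 reads and a log2 ratio of 0.16, and Hnrnpul2 5406 and 5797 reads and a log2 ratio of 0.12. Removal of the transcript trend left Hnrnpu at 0.26 and Hnrnpul1 at 0.15 but put Hnrnpul2 at -0.11. The genes of the H and F family, which bind G-rich runs, stayed close to 0, from -0.15 for Hnrnph1 to -0.036 for Hnrnph3. Of this family, Hnrnpf shares 71.9% of its windows with other places in the genome. Hnrnpa1l2-ps, annotated as a pseudogene and sharing 48.4% of its windows, had 57 and 61 reads, and its interval (0.743 to 1.58) included 1.
The remaining 4 hnRNP genes, Hnrnpc, Hnrnpm, Hnrnpk and Hnrnpr, ranged from -0.19 to 0.061.
Across the hnRNP genes the log2 ratio followed coding length (Spearman's rho 0.60 over 20 genes) but not the longest transcript (0.05 over 21 genes), a description across genes of 1 pair of libraries.

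The log2 ratios of the SF3 genes followed transcript length closely. SF3A and SF3B hold the U2 snRNP on the branch point. The 9 numbered Sf3a and Sf3b genes had a Spearman's rho of 0.98 between the log2 ratio and the longest transcript. With the length behind the FPKM, rho was 0.68 over the same 9 genes. With U2af1 and U2af2 added, it was 0.85 by transcript and 0.52 by FPKM length over 11 genes. For all 10508 genes kept with a transcript, it was 0.66. These rho values are descriptions across genes. Sf3b1 (ENSMUSG00000025982, chromosome 1 from 54985169 to 55027481), which encodes the largest subunit and the one that grips the branch point duplex, was counted 7811 times without CHBP and 9916 times with it, at 28.3 and 36.4 FPKM. Its log2 ratio of 0.35 was the highest of all members, with a CPM ratio of 1.29 (1.25 to 1.32). With the transcript trend removed it was 0.10.
Sf3b3 followed with 2802 and 3074 reads (log2 ratio 0.15) and Sf3a1, the largest SF3A subunit, with 1244 and 1336 reads (log2 ratio 0.11). The lowest of the numbered Sf3a and Sf3b genes were those with the shortest coding lengths. Sf3b5 had 447 and 323 reads, a log2 ratio of -0.39 and a CPM ratio of 0.732 (0.632 to 0.846), and Sf3b6, which lies next to the branch adenosine, had 1574 and 1222 reads and a log2 ratio of -0.34. Their longest transcripts are 733 and 1115 bases, against 6192 for Sf3b1. With the transcript trend removed Sf3b5 was at -0.014 and Sf3b6 at -0.030, so the small and the large subunits lay much closer together on that scale.
Between these ends, Sf3a3 was at -0.22, and Sf3a2, Sf3b4 and Sf3b2 were between -0.12 and -0.090.
U2af2, which binds the polypyrimidine tract, had 2397 and 2034 reads and a log2 ratio of -0.21. Its partner U2af1, which reads the AG at the 3′ splice site, had 543 and 495 reads and a log2 ratio of -0.11, with 1 inside its interval (0.816 to 1.04). Both share windows with other places in the genome, 31.3% for U2af2 and 74.6% for U2af1. Over SF3A, SF3B and U2AF together, 8 of 11 genes were lower, beside 53.7% of all genes kept. Their median log2 ratio was -0.11 (0.020 with the FPKM length trend removed). Yet their summed CPM ratio was 1.05 (1.03 to 1.06), so that the sum and the median differed in sign. Sf3b1 held 9916 of their 25862 reads in the CHBP+ library.

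The SR protein genes lay between these groups, with 7 of 10 lower, beside 53.7% of all genes kept, and a median log2 ratio of -0.10. Their summed reads were 23891 and 21892, a CPM ratio of 0.928 (0.911 to 0.945). The lowest was Srsf9, with 780 and 621 reads, a log2 ratio of -0.30 and a CPM ratio of 0.806 (0.724 to 0.897). Srsf2, a mostly nuclear SR protein that marks nuclear speckles, had 2923 and 2382 reads and a log2 ratio of -0.27.
Srsf7 and Srsf3, closely related SR proteins that also link splicing to mRNA export, had log2 ratios of -0.25 (1658 and 1371 reads) and -0.22 (3573 and 3012 reads). All 4 of these genes had intervals below 1. At the other end, Srsf10, an SR protein that represses splicing when dephosphorylated, had 1937 and 2071 reads and a log2 ratio of 0.11, the only SR gene with its interval above 1 (1.02 to 1.15). Srsf11 (2492 and 2576 reads) and Srsf1 (2111 and 2121 reads), the latter a founding member of the family, had log2 ratios of 0.059 and 0.023 with 1 inside their intervals. Srsf4 was at -0.069, Srsf6 at -0.071 and Srsf5 at -0.13. After removal of the coding length trend, the median of the SR genes was 0.027, above 0.

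Levels of different members can be compared only per length. The deposited FPKM did not serve for this, because the gene length behind it was a median of 2.12 times the longest annotated transcript and exceeded the genomic span for 9 of the members kept. CPM per kb of the longest GENCODE M1 transcript was used instead. On that scale the highest level in CHBP- M-MDSC was that of Hnrnpab, at 239.6 without and 215 with CHBP, followed by Snrpd3 at 232 and 186. Snrpd3 rests on an annotated transcript of 604 bases, while the length behind its FPKM was 3693, so its place in the order is uncertain.
Hnrnpf (200.2 and 184 CPM per kb) and Hnrnpa1 (193 and 171) came next, and Hnrnpu passed from 162 to 203. Hnrnpf shares 71.9% of its windows with other places in the genome and Hnrnpa1 79.1%, and the span of Hnrnpf overlaps another listed gene. Among the Sm ring genes the level in CHBP- M-MDSC ran from 13.3 for Snrpg to that of Snrpd3. Snrpg shares 25.4% of its windows with other places in the genome. The length behind its FPKM was 2214 bases against a longest transcript of 741, so its level is uncertain too. The lowest levels were those of Hnrnpa1l2-ps (3.58 and 3.88) and Hnrnpa3 (3.92 and 2.53). Both share many windows with other places in the genome, 48.4% and 83.9%, so these levels depend on how repeated sequence was counted.

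**Figure D4:**
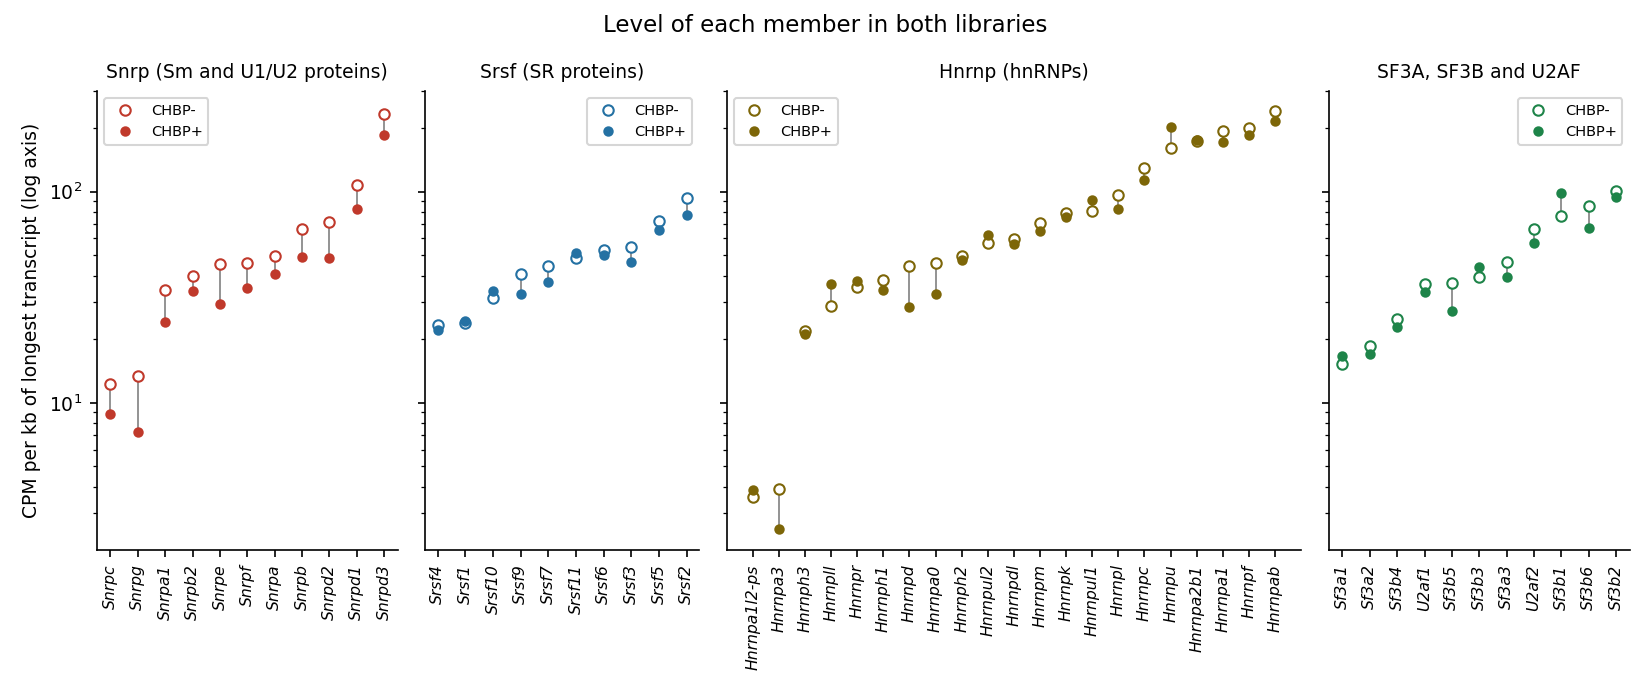
CPM per kb of the longest annotated transcript (log axis) for the 53 members kept, with open points for CHBP- and filled points for CHBP+ M-MDSC and genes ordered by CHBP- within each role group. Every Snrp gene has its filled point below its open point, and Hnrnpu and Sf3b1 have it above.

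The remaining spliceosome genes were described with 119 genes in 8 lists, of which 116 were kept. Of these, 70 were lower and 46 were higher, where 53.7% of all genes kept were lower, with a median log2 ratio of -0.070. By the 1.5-fold level, 2 were higher and 1 was lower, beside 3.42% and 2.89% of all genes kept. Srrm2, which encodes the SR-related scaffold of nuclear speckles, had 2097 and 3901 reads and a log2 ratio of 0.83, and Son, also of speckles, had 6000 and 9412 reads and a log2 ratio of 0.64. Celf1 followed with 1600 and 2414 reads and 0.49. The lowest were Lsm5 (58 and 29 reads, -0.59), the cyclophilin Ppie (608 and 402 reads, -0.54) and Gemin6 of the SMN complex (191 and 124 reads, -0.53). Removal of the transcript trend put Lsm5 at -0.22, Ppie at -0.25 and Gemin6 at -0.22. On that scale Raly was the highest gene of the lists at 0.57 and Celf2 the lowest at -0.76.
The LSm ring genes, which encode relatives of the Sm proteins that bind U6 RNA or act in mRNA decay, had the lowest median of the 8 lists as reported, with 8 of 10 lower and a median of -0.28. The SMN complex and Sm assembly genes, whose products load Sm rings onto RNA, had 9 of 10 lower and a median of -0.18. Of the Prp19 complex genes 12 of 15 were lower (median -0.17), and of the genes for U snRNP-specific proteins 18 of 25 (median -0.12). The genes of the helicase list were mostly higher, 8 of 10 with a median of 0.065. Of the SR-related genes 8 of 15 were higher (median 0.029), of the splicing regulators 13 of 23 (median 0.028) and of the SR protein kinases 4 of 8 (median -0.024).
These lists differ in length. The 28 listed genes with a coding length in the Snrp range had a median log2 ratio of -0.26 and 27 were lower, beside a median of -0.22 and 81.3% lower for all genes of that coding range, and the 87 above it had a median of 0.019 and 42 were lower. This split by length was chosen after the values were seen. With the transcript trend removed, the medians of the lists lay between -0.17 for the LSm ring and 0.013 for the helicases. The LSm ring was then below the Snrp median of -0.14. With the FPKM length trend removed, the list medians lay between -0.21 and 0.046 for the same lists. With the coding length trend removed the LSm ring turned to 0.051, the highest of the 8 lists (9 of its genes have a coding length), while the SMN list was lowest at -0.11 and the helicases were at -0.059.

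**Figure D5:**
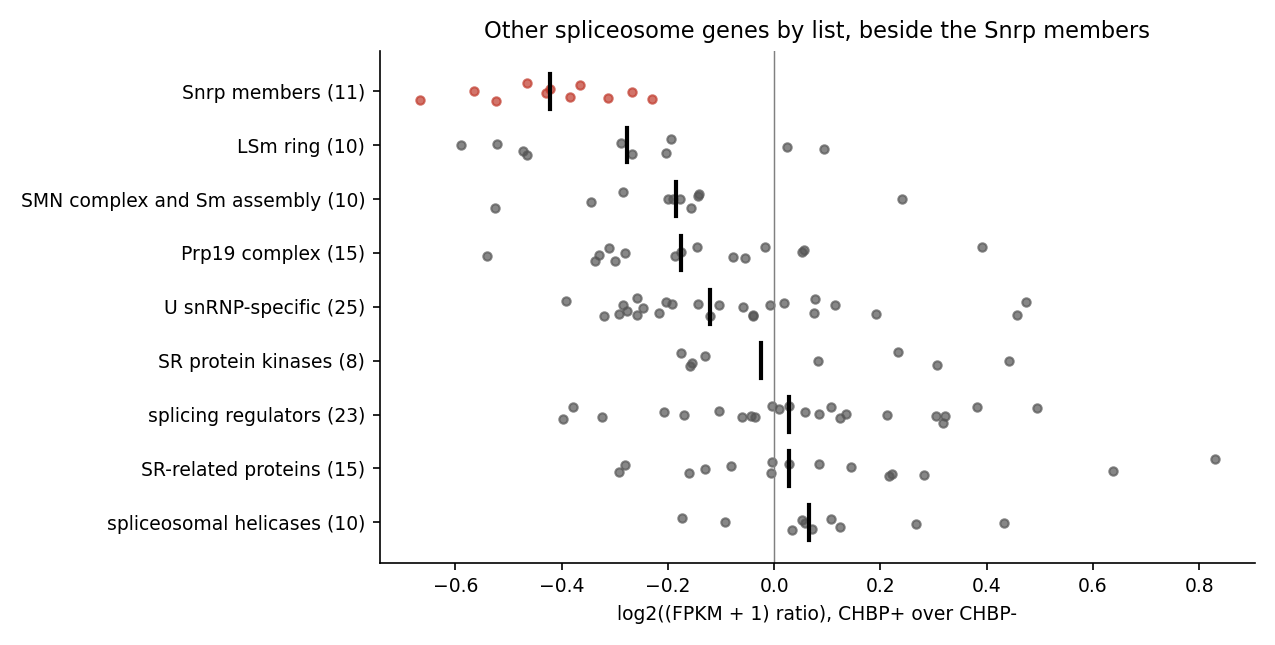
Log2 ratio of CHBP+ over CHBP- M-MDSC for 116 other spliceosome genes in 8 lists, with the 11 Snrp genes in red above them, 1 point per gene and black bars for medians. List medians run from -0.28 for the LSm ring to 0.065 for the helicases, and the Snrp median is -0.42.

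Repeated sequence and overlapping genes touch several members. How the counting treated reads with several matches, and whether it used strand, is not given in the sources used here. Of the members kept, 24 had no 75-base window found elsewhere in the genome and 19 had over 10% of such windows. The 3 Snrp genes with none (Snrpa1, Snrpb and Snrpd3) were all lower, with a median log2 ratio of -0.42 and a summed CPM ratio of 0.758 (0.728 to 0.79). Snrpd2 (30.8%) and Snrpg (25.4%) had the most such windows among the Snrp genes. The spans of 15 members overlap another listed gene with reads, Snrpf, Snrpd3 and Snrpa among the Snrp genes and Hnrnpu and Sf3b3 among the higher ones, so reads of both partners may be mixed.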

How the data were processed

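mRNA of M-MDSCs was measured by single-end 75-bp RNA sequencing, 1 library per condition. The authors deposited raw read counts per gene, after removal of adapters, low-quality ends, short reads and ribosomal reads, and FPKM, which are those counts scaled to gene length and library total, with no other scaling. The study's methods name TopHat2, HT-seq and mm9, whereas the submitters' processing notes name HISAT2 2.0.4, Cufflinks 2.1.1, Cuffdiff and mm10 (GRCm38). The spans of all 55 members overlap their RefSeq genes on GRCm38.p6, and coordinates are as deposited. GENCODE M1 (NCBIM37) gave transcript and coding lengths and repeated windows, by gene identifier, for 54 members and 10508 of 10948 genes kept.

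Log2 ratios used a pseudocount of 1 FPKM and a minimum of 1 FPKM in at least 1 library. Intervals needed 10 reads over both libraries. PCR copies can share a molecule, so floors and intervals cover counting error alone, at depths of 16484504 and 16280466 reads. No count model was fitted, since 1 library per condition leaves no replicate spread. A window was repeated when its 75 bases occur exactly elsewhere on either strand, counting windows that reach at least 10 bases past a junction. The length trend was a running median over each gene and 250 on either side. Named genes are the 4 highest and 4 lowest of each role group, every member past 1.5-fold, paralogs of those, and the 3 highest and 3 lowest other spliceosome genes. Snrpb, Snrpc, Snrpf, Raly, Celf2 and the genes named for their level, repeats or overlaps were named after their values were seen. The members and lists were chosen with earlier results of these data known.

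Alternatives were a pseudocount of 0.1 FPKM, no filter or at least 5 FPKM, centring on the median, the trimmed mean of M values, CPM in place of FPKM, a fold threshold of 2, a counting interval on one side of 1, a split by length and the removal of overlapping or repeated members and of 3 length trends. Python 3.11.15, numpy 2.4.6, pandas 2.3.3, scipy 1.17.1, matplotlib 3.10.9, R 4.3.3 and edgeR 4.0.16 (normalization factors only) were used, and the calculations were tested on simulated data.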

Additional observations from a re-analysis of the deposited data

How the results depend on the processing

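No paired analysis was possible because each condition has a single library, and leaving out a replicate could not be tried either. No member was 1.5-fold higher under any alternative run. The number 1.5-fold lower, 2 as reported, was 4 with a pseudocount of 0.1 FPKM and with CPM (Snrpg, Snrpe, Hnrnpd and Hnrnpa3 by CPM ratio), 1 with at least 5 FPKM, with median centring, with the trimmed mean of M values, with the FPKM length trend removed and with repeated members left out, 3 with the transcript trend removed (Hnrnpd, Snrpc and Hnrnpa3, with Snrpg at -0.30), and 0 with a fold threshold of 2 and with the coding length trend removed. The Snrp median moved from -0.42 to -0.14 with the transcript trend removed, to -0.18 with the coding length trend removed and to -0.28 for members at or below the median coding length of 1050 bases in place of Snrp genes. The difference from the other members moved from -0.31 to -0.10 and -0.15 with these 2 trends removed. With the FPKM length trend removed the Snrp median was -0.32 and the difference -0.22, and the split by coding length gave a difference of -0.21. Under the remaining alternatives the Snrp median lay between -0.45 and -0.39 and the difference between -0.33 and -0.29. Trends with transcript and coding length and the repeats were alternatives chosen after seeing the data.

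Among role group medians and members with a counting interval on one side of 1, signs turned only where a length trend was removed: the SF3 and U2AF median to 0.020, Srsf10 to -0.0050, Sf3b2 to 0.0097 and Hnrnpa1 to 0.027 with the FPKM length trend removed, Snrpd1 to 0.0016, Snrpd3 to 0.073, Srsf9 to 0.0059, Hnrnpa1 to 0.14, Hnrnpul2 to -0.11 and Sf3a1 to -0.050 with the transcript trend removed, and the Srsf median to 0.027, Srsf3 to 0.019, Srsf5 to 0.034, Srsf6 to 0.035 and Sf3b3 to -0.071 with the coding length trend removed. The cause of the length trend was not tested. Depth limits Snrpg, Lsm5 and Hnrnpa1l2-ps most, which had the fewest reads of the genes named among those kept.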
